A study of Mus musculus with 6 samples.

Results

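Hox cluster genes encode homeodomain transcription factors that give cells along the head-to-tail axis their positional identity. They were taken here as every probe set whose single gene symbol on the platform was Hoxa, Hoxb, Hoxc or Hoxd followed by a number, which gave 48 probe sets for 33 genes out of 45101 probe sets in all. A probe set is a group of short oligonucleotides near the 3' end of a transcript that yields 1 signal. The lungs came from mice lacking Carm1, which encodes a protein arginine methyltransferase that acts as a transcriptional coactivator, and from wild-type mice, with 3 arrays per genotype and 1 array per labelled sample. The series text places both genotypes at embryonic day 18.5, and the sample labels of the knockouts give the same stage, whereas those of the wild types say neonatal, so if the ages differed, age and genotype cannot be told apart. The labels name no strain, no extent of the deletion, no Cre and no litters, and nothing states that the samples came from separate fetuses, so p-values measure only the spread between these samples. Carm1 itself had signals of 814, 678 and 865 on the wild-type arrays and of 395, 374 and 511 on the knockout arrays, a log2 difference of −0.89 (limma adjusted p = 0.105), and whether its probes lie in the deleted part is not known here.

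In the mouse the Hox genes lie in 4 clusters on separate chromosomes, and genes at the same place in different clusters form a paralogue group of related sequence. Genes of low number, at the 3' end of a cluster, are switched on earlier and reach further towards the head than genes of high number at its 5' end. In the lung, Hox expression is best known in the mesenchyme, where the genes of paralogue group 5 act together in branching and maturation, and loss of Hoxa5 alone gives newborn mice with respiratory failure. Polycomb complexes keep silent Hox genes off, trithorax complexes keep active ones on, retinoic acid and Cdx factors help to induce them, and Pbx, Meis and Pknox proteins of the TALE class bind DNA together with Hox proteins.

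The genes measured above the low end of the arrays came almost all from the 3' parts of the Hoxa and Hoxb clusters. The filter on low signals lay at the 40th percentile of the probe-set means over all 6 arrays, a signal of 59.7, and 14 of the 48 Hox probe sets passed it, for 10 of 33 genes. In clusters A and B every measured gene of paralogue groups 2 to 6 passed, 9 of 9, namely Hoxa2, Hoxa3, Hoxa4, Hoxa5, Hoxb2, Hoxb3, Hoxb4, Hoxb5 and Hoxb6. Of the measured genes of groups 7 to 13 in the same clusters, 0 of 8 passed (Hoxa7, Hoxa9, Hoxa10, Hoxa11, Hoxa13, Hoxb7, Hoxb9 and Hoxb13), and Hoxb1 did not pass either. Cluster C had 0 of 7 measured genes above the filter (Hoxc4, Hoxc5, Hoxc6, Hoxc8, Hoxc9, Hoxc10 and Hoxc13). Cluster D had 1 of 8, Hoxd8, while Hoxd1, Hoxd3, Hoxd9, Hoxd10, Hoxd11, Hoxd12 and Hoxd13 did not pass. Genes with no probe set of 1 symbol were not analysed here, and 3 probe sets shared by several Hox genes were left out.

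**Figure D1:**
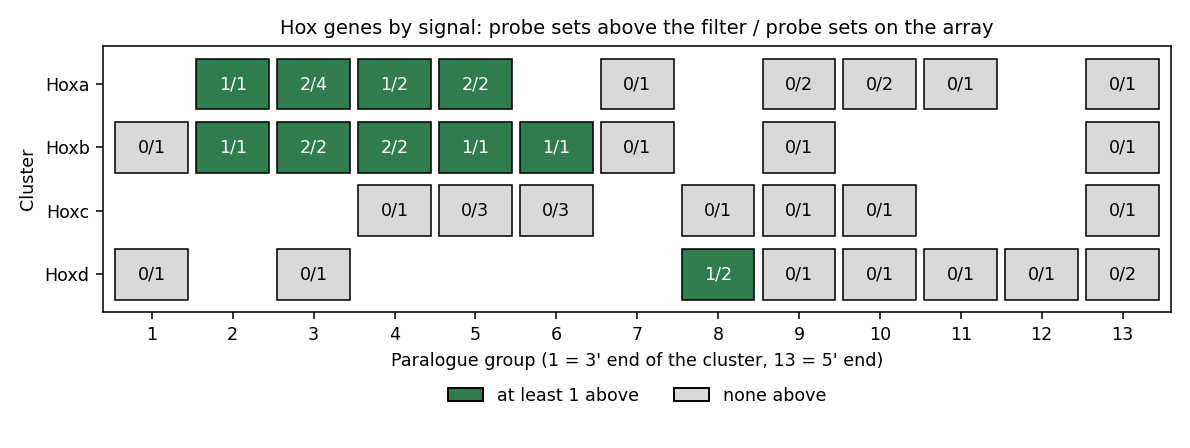
Mouse Hox genes by cluster (rows) and paralogue group (columns), where each box gives the probe sets above the filter over those with 1 symbol on the array, and an empty place has no such probe set. Green boxes run from group 2 to group 5 in the Hoxa row and to group 6 in the Hoxb row, and Hoxd8 is the only green box in the other rows.

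A low signal on such an array can reflect a weak probe set as well as a missing transcript, so signals were set against an outside reference and not against each other. Olfactory receptor genes, which are read out in the nose, had 44 probe sets with a median signal of 13.4, a 95th percentile of 45.7 and 0 above the filter. The 34 Hox probe sets not above the filter had geometric means from 4.46 to 48.2 with a median of 14.3, and 33 of them lay within that percentile of the olfactory receptors. The one beyond it belonged to Hoxc6, with signals of 115, 32.9 and 53.0 in wild type and 57.1, 58.2 and 18.7 in knockout. The other 2 probe sets of Hoxc6 did not exceed the reference. Of the 34 probe sets, 4 were further ones for Hoxa3, Hoxa4 and Hoxd8, which passed at another probe set. The other 23 genes had no probe set above the filter, which does not show that their transcripts were absent.

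The border within the Hoxa cluster fell between Hoxa5 and Hoxa7, with Hoxa6 not measured. RefSeq promoter windows on GRCm38.p6, taken as the 250 bases before the start, are shown for Hoxa5 (chr6:52204588-52204837, minus strand), for Hoxa7 (chr6:52218574-52218823, minus strand) and for the distal gene Hoxa13 (chr6:52260881-52261130, minus strand), 5' to 3', because they stand on both sides of that border and at the far end of the cluster. Capitals mark the dinucleotide CG, a site at which DNA can be methylated. Polycomb complexes often sit at CpG islands of silent developmental genes.

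Hoxa5: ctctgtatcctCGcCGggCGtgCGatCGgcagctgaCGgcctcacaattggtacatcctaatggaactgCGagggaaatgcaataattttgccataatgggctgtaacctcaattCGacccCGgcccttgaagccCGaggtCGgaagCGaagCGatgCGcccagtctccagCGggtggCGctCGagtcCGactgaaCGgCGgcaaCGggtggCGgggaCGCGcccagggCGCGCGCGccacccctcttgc

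Hoxa7: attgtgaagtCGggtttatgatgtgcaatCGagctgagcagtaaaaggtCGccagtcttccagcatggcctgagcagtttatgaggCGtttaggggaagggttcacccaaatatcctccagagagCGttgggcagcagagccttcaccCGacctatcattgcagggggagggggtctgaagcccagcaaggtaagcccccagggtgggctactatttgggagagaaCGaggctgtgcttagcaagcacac

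Hoxa13: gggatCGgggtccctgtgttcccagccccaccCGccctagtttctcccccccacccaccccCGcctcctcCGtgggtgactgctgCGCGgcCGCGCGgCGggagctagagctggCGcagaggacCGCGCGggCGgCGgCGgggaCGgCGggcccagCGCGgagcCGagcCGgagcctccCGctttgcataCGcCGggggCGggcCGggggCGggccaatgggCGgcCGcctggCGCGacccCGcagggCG

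The windows held 28 CG for Hoxa5, 7 for Hoxa7 and 35 for Hoxa13. The next gene after Hoxa7, Hoxa9, had 3, and Hoxa2, whose signal passed, had 6. Over the 24 windows that matched 22 Hox genes, the count ran from 2 to 35 with a median of 12.5, against a median of 6 over all 32851 promoter windows, of which 92.1% held at least 1 CG. The 5 windows of genes above the filter ranged from 6 to 28 and the 16 windows of measured genes not above it from 2 to 35. These ranges overlapped. CG reads the same on both strands, and methylation was not measured here.

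No Hox gene passed the test between genotypes. With limma and Benjamini-Hochberg adjustment, 0 of 14 Hox probe sets had an adjusted p under 0.05, where 0.0296% of the 27022 tested probe sets did (8 in all), and the lowest adjusted p among Hox probe sets was 0.428. At an unadjusted p under 0.05 there were 0 of 14 Hox probe sets, where 13.6% of all tested probe sets were called, 7.32% higher and 6.31% lower in knockout. Under 6 of 17 alternative fits 1 Hox probe set had such a p, of Hoxa3 in 4 fits and of Hoxa5 and Hoxd8 in 1 each, all higher in knockout and none past the adjusted threshold. In these bulk samples, fewer cells of a type and less RNA per cell cannot be told apart. The genotypes did not overlap in 1 of 14 Hox probe sets, where 20% of all probe sets showed no overlap. The 10 Hox genes, taken by their probe set of highest mean, had a median log2 difference (knockout minus wild type) of 0.15, against 0.029 over the 12947 genes tested, with 7 higher and 3 lower, or 6 and 4 after quantile normalization or with arrays centred on the median. Without knockout replicate 3 the Hox median was 0.015. For the size of change the arrays allow, the 95% interval of the difference was taken at the probe set of highest mean. It stayed within 1.5-fold in both directions for 5 of the 10 genes and within 2-fold for 9 of 10, the exception being Hoxd8. Over all 14 probe sets these counts were 5 and 12. The second tested Hoxa3 probe set, with an interval up to a log2 of 1.48, also went beyond 2-fold.

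Hoxa5 and Hoxb5 are the measured members of paralogue group 5 above the filter. Hoxa5, required for lung and tracheal development, had signals of 1789, 2057 and 2112 on the wild-type arrays and of 2466, 1989 and 2304 on the knockout arrays. Knockout replicate 2 lay within the wild-type range, so the groups overlapped. The means were 1986 ± 173 (SD, n = 3) and 2253 ± 243, a log2 difference of 0.18 with a 95% interval from −0.085 to 0.45 (limma adjusted p = 0.544, exact two-sided permutation p = 0.3, where 3 against 3 cannot go below 0.1). The difference was 0.11 without wild type replicate 1 or knockout replicate 1. At the second Hoxa5 probe set, a type that can share probes with other transcripts, the difference was 0.25, with signals of 1073, 1825 and 1118 in wild type and 1638, 1372 and 1642 in knockout. There the wild-type arrays spread more widely than the knockouts, with wild type replicate 2 above all the others, and without that array the difference was 0.50 (limma adjusted p = 0.244). Hoxb5, a lung mesenchymal regulator of branching, had signals of 598, 469 and 457 in wild type and of 525, 553 and 561 in knockout. All 3 knockout values fell inside the wild-type range, and the difference was 0.12 with an interval from −0.22 to 0.45 (limma adjusted p = 0.778). It was 0.24 without wild type replicate 1, and 0.063 and 0.044 without wild type replicates 2 and 3. For Hoxc5, the remaining gene of the group, 3 probe sets had geometric means between 5.01 and 10.1.

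Hoxa2, Hoxa3 and Hoxa4 had their highest signal on knockout replicate 3. Hoxa2, a gene of hindbrain and branchial arch patterning, had signals of 159, 136 and 189 in wild type and of 176, 190 and 220 in knockout. Its groups overlapped, with a log2 difference of 0.28 and an interval from −0.22 to 0.77 (limma adjusted p = 0.622), and 0.16 without wild type replicate 2. Hoxa3, which patterns pharyngeal organs such as the thymus, had signals of 252, 288 and 309 in wild type and of 409, 282 and 425 in knockout. Knockout replicate 2 lay inside the wild-type range and the other knockouts above it, for a difference of 0.38 with an interval from −0.077 to 0.83 (limma adjusted p = 0.453, exact permutation p = 0.3). The second tested probe set of Hoxa3 differed by 0.69 with an interval from −0.096 to 1.48 (limma adjusted p = 0.428), from 103, 62.4 and 140 in wild type to 129, 145 and 202 in knockout. It had the largest difference among the 14 Hox probe sets, and the remaining 2 probe sets of the gene, at geometric means of 36.6 and 36.5, were not tested. Hoxa4 had signals of 125, 141 and 144 in wild type and of 154, 129 and 244 in knockout. Knockout replicate 3 stood well above the other 5 arrays, and without it the difference of 0.31 was 0.050.

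The Hoxb genes gave differences closer to 0. Hoxb2, active in hindbrain patterning, had signals of 777, 632 and 633 in wild type and of 672, 616 and 678 in knockout, with a log2 difference of −0.049 and an interval from −0.35 to 0.25 (limma adjusted p = 0.906). Hoxb3 had signals of 797, 863 and 882 in wild type and of 822, 831 and 879 in knockout. Its group means of 848 ± 44.5 and 844 ± 30.7 (SD, n = 3) differed by less than either spread. The interval ran from −0.25 to 0.24, the narrowest among the tested Hox genes, so at this probe set a change of 1.5-fold lay outside it. At the second tested Hoxb3 probe set the difference was 0.064. Its interval, from −0.49 to 0.62, included a rise of 1.5-fold. Hoxb4, known for its effect on blood stem cells, had signals of 371, 218 and 381 in wild type and of 301, 295 and 371 in knockout. Wild type replicate 2 was the lowest array at both Hoxb4 probe sets, and the difference at the one of higher mean was 0.033 with an interval from −0.51 to 0.58 (limma adjusted p = 0.969). With such values the direction of Hoxb2, Hoxb3 and Hoxb4 is not settled, and it turned under several alternatives, for Hoxb4 to −0.017 after quantile normalization and −0.026 with arrays centred on the median.

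Among the 10 Hox genes above the filter, Hoxb6 was the 1 whose genotypes did not overlap. Its signals were 156, 163 and 148 in wild type and 118, 120 and 140 in knockout, so each knockout array lay below each wild-type array. The means were 155 ± 7.60 and 126 ± 12.4 (SD, n = 3), a log2 difference of −0.30 with an SE of 0.22 and an interval from −0.80 to 0.19 (limma adjusted p = 0.588, exact permutation p = 0.1, the smallest possible). Knockout below wild type with no overlap was seen in 9.36% of all tested probe sets. Hoxb6 stood at −0.26 to −0.38 with any 1 array left out.

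Hoxd8, the 1 gene outside clusters A and B above the filter, had the widest interval of the 10 genes. Its signals were 63.7, 84.5 and 96.1 in wild type and 52.3, 120 and 142 in knockout, so the knockout arrays included both the lowest and the highest of the 6. The log2 difference was 0.26 with an interval from −0.69 to 1.21 (limma adjusted p = 0.829), and it was −0.020 without knockout replicate 3. At its second probe set, which was not above the filter, knockout replicates 2 and 3 were again highest, at 94.6 and 121, and knockout replicate 1 lowest, at 6.13. This probe set and the tested one therefore shared the order of the knockout arrays.

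**Figure D2:**
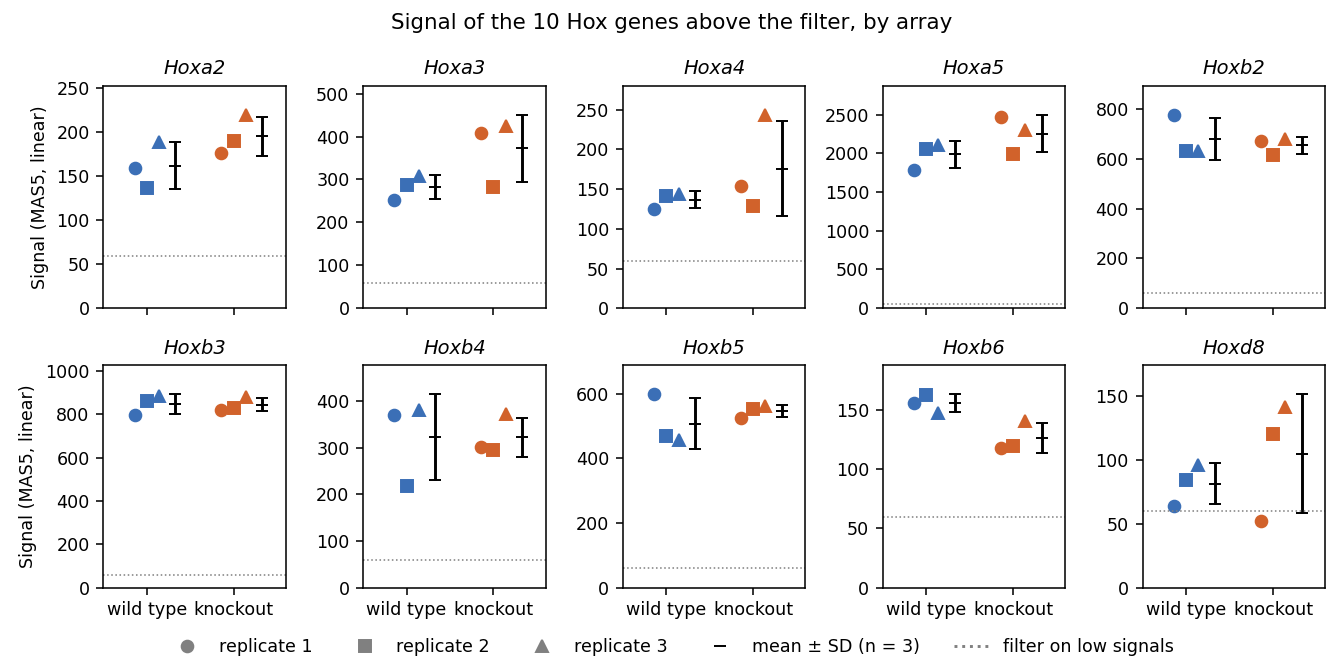
Signal of each Hox gene above the filter on each array (MAS5 signal, linear scale from 0, a separate axis for each gene), with symbols for the replicate number, the mean ± SD of 3 arrays in black and the filter at 59.7 as a dotted line. The genotypes overlap in every panel except Hoxb6, and knockout replicate 3 is the highest point for Hoxa2, Hoxa3, Hoxa4 and Hoxd8.

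**Figure D3:**
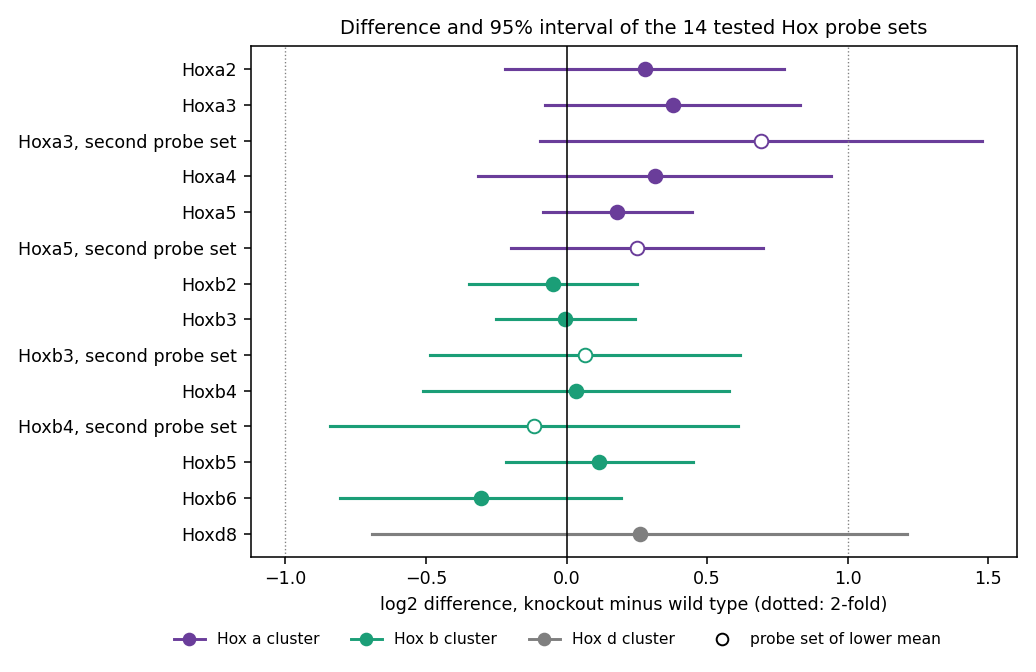
Log2 difference (knockout minus wild type) of the 14 tested Hox probe sets with its 95% interval from limma, filled for the probe set of highest mean of a gene and open for the other. Every interval includes 0, and the 6 Hoxa probe sets lie to the right of 0 while the 7 Hoxb probe sets lie on both sides.

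All 4 Hoxa genes, and all 6 of their tested probe sets, had differences above 0, with a median over the genes of 0.29, while 2 of the 5 Hoxb genes did (1 of 5 under either rescaling), with a median of −0.0052. Over all tested probe sets 52.7% were above 0. Averaged over the genes of a cluster, the mean log2 signal of Hoxa2 to Hoxa5 was 8.27, 8.35 and 8.51 on the wild-type arrays and 8.67, 8.42 and 8.90 on the knockout arrays. The knockout array of lowest mean, replicate 2, fell between wild type replicates 2 and 3, so the groups overlapped. For Hoxb2 to Hoxb6 the mean was 8.86, 8.61 and 8.74 in wild type and 8.65, 8.64 and 8.80 in knockout. The knockout values lay within the wild-type range there. The 4 Hoxa genes kept differences above 0 after quantile normalization (median 0.23) and with arrays centred on the median (median 0.24), and without knockout replicate 3 the median was 0.17. These means describe the genes and were given no test, and genes of 1 cluster lie side by side and may not vary independently.

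**Figure D4:**
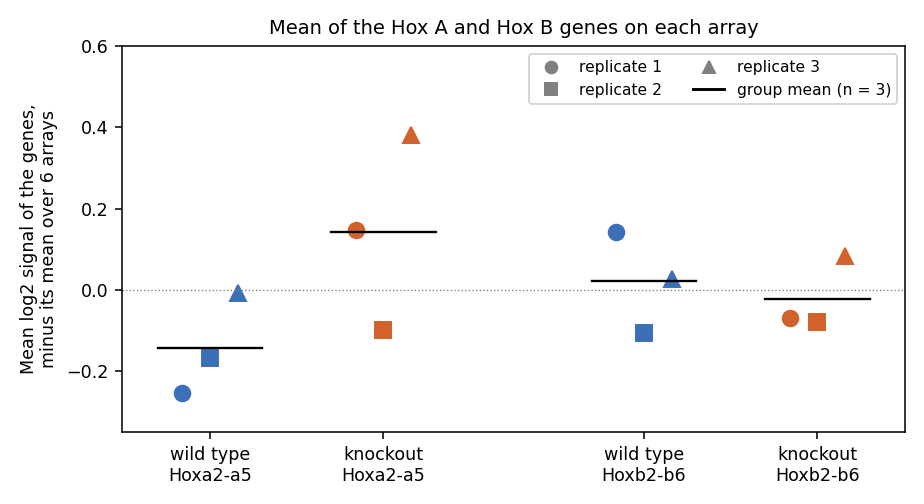
Mean log2 signal of the Hoxa2 to Hoxa5 genes and of the Hoxb2 to Hoxb6 genes on each array, each minus its mean over the 6 arrays, with the group mean as a line (n = 3). Knockout replicate 3 is the highest Hoxa point and wild type replicate 1 the lowest, and the 2 genotypes overlap for both clusters.

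Markers of other tissues, some of which also express Hox genes, differed between the arrays. Knockout replicate 3 had a summed signal of 47501 over 7 skeletal muscle markers, against 375 to 4174 on the wild-type arrays and 959 and 1967 on the other knockout arrays, with the myosin light chain gene Myl1 at 20110 and the muscle regulator Myog at 714. The same array had 5679 over 6 cartilage and bone markers, led by the cartilage collagen Col2a1 at 4537, against 253 to 665 on the other 5. The list of thymus, liver and oesophagus markers was highest on wild type replicate 2 (80903) and knockout replicate 1 (103230), mainly through the liver genes Alb and Afp. The sums of lung mesenchyme markers lay between 72213 and 78166 in wild type and between 69199 and 69708 in knockout, those of epithelium between 95119 and 116230 and between 100410 and 108070, those of mesothelium between 7454 and 8586 and between 4709 and 6847, and those of endothelium between 13098 and 15360 and between 10590 and 11964. The mesenchyme, mesothelium and endothelium sums did not overlap between genotypes, nor did those of nerve (696 to 989 and 476 to 600), and the epithelium sums did. Among all single probe sets tested, 20% had no overlap and 13.6% an unadjusted p under 0.05. A sum weighs genes of high signal most. The nerve sum was mainly Stmn2, at 918, 546 and 619 in wild type and 384, 425 and 354 in knockout. The other measured nerve markers were not above the filter. Their mean signals were higher in knockout for Tubb3, Snap25 and Nefl, and slightly lower for Elavl4, so the nerve sum speaks for Stmn2 only. In mesenchyme, Tcf21 (means of 23993 and 21232) and Fn1 (21722 and 17128) were lower in knockout and Col1a2 (12110 and 13503) higher. The marker lists of lung mesenchyme (11 genes measured), epithelium (8), endothelium (6), mesothelium (5), blood (6), nerve (5), muscle (7), cartilage (6) and thymus, liver and oesophagus (8) had 0 genes with an array at 0. None passed the adjusted test. The members of smallest unadjusted p had these log2 differences: in mesenchyme Fn1 −0.34, Col1a1 0.54, Twist2 0.82 and Foxf1 −0.37, in endothelium Kdr −0.48, Cdh5 −0.36, Pecam1 −0.48 and Emcn −0.28, and in mesothelium Msln −0.72 and Upk3b −0.56. In endothelium 1 gene was higher (Tek, 0.24) and 5 lower, in mesothelium 1 higher (Upk1b, 0.15) and 4 lower, in mesenchyme 6 and 5, in epithelium 4 and 4, in blood 2 and 3, in nerve 0 and 1, in muscle 4 and 1, in cartilage 3 and 1, and in the last list 5 and 0. In the other lists these were Cldn18 (−0.65) and Epcam (0.32) of epithelium, Cpa3 (2.57) and Lyz2 (−0.57) of blood, Stmn2 (−0.81) of nerve, Ckm (1.97) of muscle, Col2a1 (2.39) of cartilage, and Sox2 (0.78) and Krt4 (1.68) of the last list. The part of these markers in the Hox values was not tested.

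The Hox probe sets not above the filter showed scattered signals on single arrays. Of the 34, 24 had no array above a signal of 59.7, and 4 had at least 2. Hoxc4 was at 28.3, 12.4 and 8.40 in wild type and at 3.10, 137 and 125 in knockout, so that knockout replicates 2 and 3 stood apart from the remaining 4 arrays, knockout replicate 1 included. Hoxa9, a gene of more posterior identity, had probe sets that ran in opposite ways, at 11.3, 15.0 and 67.6 in wild type and 98.2, 50.5 and 42.8 in knockout for one, and at 36.4, 31.9 and 5.58 and then 3.84, 4.21 and 20.2 for the other. One of the Hoxd13 probe sets had no overlap, at 38.4, 22.2 and 40.3 in wild type and 64.9, 46.1 and 58.6 in knockout. Its geometric mean of 42.7 lay within the olfactory reference, and 20% of all tested probe sets showed no overlap. The other Hoxd13 probe set, at 57.4, 52.1 and 29.5 and then 2.90, 66.9 and 45.7, overlapped. With no filter, 0 of 48 Hox probe sets had an unadjusted p under 0.05.

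Among the cofactors of Hox proteins, 8 of the 9 TALE genes were measured and all 8 were above the filter, but 0 passed the adjusted test in either direction and, by the probe set of highest mean, 0 had an unadjusted p under 0.05, where 13.6% of all probe sets did. Of these 7 had a log2 difference above 0, with a median of 0.18, or 5 with arrays centred on the median. Pbx4, the one of smallest p, had signals of 92.0, 55.8 and 80.8 in wild type and of 168, 83.3 and 152 in knockout, a difference of 0.79 (limma adjusted p = 0.387) with overlapping groups. Meis1 and Pbx3, partners that widen the range of Hox binding sites, differed by 0.025 and 0.026. Meis2 differed by 0.33 at its probe set of highest mean (limma adjusted p = 0.459). Further probe sets of Meis2 (log2 0.37, limma adjusted p = 0.275) and Pbx2 (log2 −0.33, limma adjusted p = 0.329) had an unadjusted p under 0.05 and no overlap.

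Of the genes that induce or maintain Hox expression, 0 passed the adjusted test in either direction. In the retinoid and Cdx list 8 of 15 measured genes were above the filter, and Cdx1, Cdx2 and Cdx4, which act in the early embryo, were not. The retinoic acid receptor gene Rara had signals of 113, 128 and 203 in wild type and of 193, 245 and 230 in knockout, a log2 difference of 0.63 (limma adjusted p = 0.348), and knockout replicate 1 lay inside the wild-type range. Rarb differed by −0.31 and Aldh1a2, which makes retinoic acid, by 0.0089. The Polycomb list had 25 of 26 measured genes above the filter, 12 higher and 13 lower, with a median of −0.064, or 8 and 17 with arrays centred on the median. By the probe set of highest mean, 2 of 25 had an unadjusted p under 0.05, against 13.6% of all probe sets, and 6 of 25 had no overlap (1 above, 5 below), against 20%. The 2 encode alternative catalytic subunits and had opposite signs: Ezh2 had signals of 1102, 1119 and 1304 in wild type and 1643, 1259 and 1670 in knockout (log2 0.37, limma adjusted p = 0.299), and Ezh1 had 748, 811 and 717 in wild type and 601, 616 and 605 in knockout (log2 −0.32, limma adjusted p = 0.287). The groups overlapped for Ezh2 and did not for Ezh1. The others with no overlap were Mtf2 (0.27), Phc3 (−0.21), Phc2 (−0.14), Cbx2 (−0.14) and Jarid2 (−0.070). A further probe set of Pcgf5 was lower in knockout with no overlap (−0.39, limma adjusted p = 0.254). Further probe sets of Mtf2 (0.20 and 0.23), Suz12 (0.18), Pcgf3 (0.84) and Pcgf6 (0.53) were higher in knockout with no overlap. These were picked for their lack of overlap, which 20% of all tested probe sets showed. Another Mtf2 probe set overlapped, at −0.19. At their probe sets of highest mean Suz12 (0.10), Pcgf6 (0.083) and Pcgf3 (−0.064) overlapped.

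In the list of trithorax genes and H3K27 demethylases 14 of 15 measured genes were above the filter, 8 higher and 6 lower, with a median of 0.0094, or 5 and 9 with arrays centred on the median. Dpy30 and Wdr5, core subunits shared by the complexes that methylate H3K4, had an unadjusted p under 0.05 and no overlap. These 2 of 14 genes, and 3 of 14 with no overlap (Rbbp5 at −0.11 is the other), lie near the 13.6% and 20% of all probe sets. Dpy30 was at 3687, 3406 and 2945 in wild type and 4126, 4121 and 5356 in knockout (log2 0.43, limma adjusted p = 0.232), and Wdr5 at 764, 876 and 932 and at 1070, 1033 and 1092 (log2 0.32, limma adjusted p = 0.291). Kmt2a, the methyltransferase best known for maintaining Hox expression, differed by 0.060 and its partner Men1 by 0.013. The second probe set of Kmt2a differed by −0.22 with no overlap (limma adjusted p = 0.529). Further probe sets of Kdm6a (−0.65, limma adjusted p = 0.309) and Wdr5 (0.48, limma adjusted p = 0.310) had an unadjusted p under 0.05 and no overlap.

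Beside the clusters, 11 of 14 measured flanking and noncoding genes were above the filter, 7 higher and 4 lower (3 and 8 with arrays centred on the median), and 0 passed the adjusted test. Hoxb5os, a noncoding gene of the Hoxb cluster, had signals of 1467, 1479 and 1067 in wild type and 1614, 1210 and 1059 in knockout, with a difference of −0.054. Evx1, next to the Hoxa cluster, and Hoxa11os were not above the filter, while Evx2, next to the Hoxd cluster, was (160, 73.8 and 70.2 in wild type, 93.6, 120 and 21.9 in knockout). Calcoco1 beside the Hoxc cluster and Hibadh beside the Hoxa cluster had an unadjusted p under 0.05, at log2 −0.33 and −0.31 with no overlap (limma adjusted p of 0.278 and 0.295). These 2 of 11 genes stand beside 13.6% (unadjusted p) and 20% (no overlap) of all tested probe sets. The second probe set of each overlapped, at −0.56 and −0.25. Further probe sets of Skap2 (0.48, limma adjusted p = 0.354) and Cbx5 (0.67, limma adjusted p = 0.365) were higher in knockout. These had an unadjusted p under 0.05 and no overlap, and Cbx5 probe sets at 0.34 and 0.13 had no overlap either. Of the lung genes tied to Hox5 function, Wnt2 differed by 0.082 and Bmp4 by 0.055, and elastin (Eln) by −0.71 (limma adjusted p = 0.0934), with 5 of 6 measured genes above the filter and 0 past the adjusted threshold. Wnt2b was not above the filter.

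**Figure D5:**
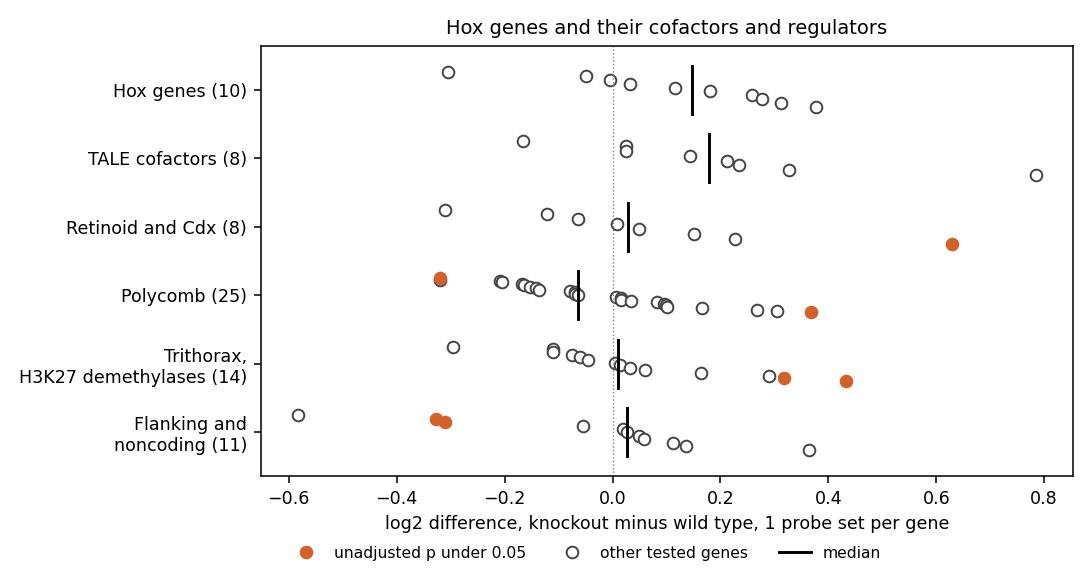
Log2 difference (knockout minus wild type, 1 probe set per gene) of the tested Hox genes and of the tested genes in 5 lists of cofactors, regulators and neighbours, with the number of genes in brackets and the median as a line. Filled points have an unadjusted limma p under 0.05: none of the 10 Hox genes, none of 8 TALE genes, and 1 or 2 in each of the other lists.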

How the data were processed

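Total RNA of lung was measured on 6 Affymetrix Mouse Genome 430 2.0 arrays, after isolation on a Qiagen column and biotin labelling, per the labels' protocols. The deposited intensity values are linear probe-set signals. The submitters' processing notes name MAS5 as the tool, with no version. In the deposited file the mean after trimming 2% at each end is 500 on every array, and medians run from 106 to 121, so arrays share a scale but were not matched further. Bacterial control RNA was high on 2 wild-type arrays (medians of 379 and 609) and low on the other 4 (4.29 to 11.4). Detection calls were not used here. With 6 arrays, precision is limited by their number.

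By gene ID, platform symbols were brought up to date from a RefSeq table of GRCm38.p6, and all 48 Hox probe sets matched. Of the other probe sets none with several symbols was named. Log2 was taken with no pseudocount, since no value was 0 or below, and limma 3.58.1 in R 4.3.3 (lmFit, eBayes with trend, two-sided) tested the 27022 probe sets above the 40th percentile, after leaving out 64 controls, with Benjamini-Hochberg adjustment at 0.05. The fit was tested on simulated data. A gene stands for its probe set of highest mean. All Hox genes were named, with every array's signal for those tested, and from each list up to 4 tested genes of unadjusted p under 0.05, or the 1 of smallest p. Other genes were named after their values were seen. Members and lists were chosen with earlier results of these data known. The fits were repeated under 17 alternatives. Sex as a term was inferred from signals, not taken from labels. An array counted as male-like where Y-linked genes exceeded the X-linked gene Xist, as in wild type replicate 3 and knockout replicate 2. Replicate numbers are not stated to pair samples, so the main fit has no block. The deviations of same-numbered arrays correlated at −0.14, −0.38 and −0.0056, which with 3 arrays per group cannot exclude a pairing.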

Additional observations from a re-analysis of the deposited data

How the results depend on the processing

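In all 17 alternative fits, with another scaling, filter, variance model, covariate or set of arrays, 0 Hox probe sets passed the adjusted test. Fits that changed only the filter or the variance model, or added the replicate block or sex, left every tested difference as it was. They could not turn a sign. With these counted in, the single-gene difference of the 10 Hox genes kept its sign in 156 of 170 alternatives. The 14 others were in 4 genes: Hoxb2 at 0.051 with bacterial control RNA as a term, at 0.051 in the 4 arrays with low bacterial control RNA (an alternative chosen after seeing the data, which sets 1 wild-type array against 3 knockouts and assumes that the lone array varies like the knockouts; the bacterial term gives the same differences, so neither bears much on the count of 0 calls) and between −0.099 and 0.050 with 1 array left out; Hoxb3 between −0.049 and 0.024 when 1 array was left out and at 0.029 as the mean of its probe sets; Hoxb4 at −0.017 after quantile normalization, −0.026 with arrays centred on the median, −0.041 as the mean of its probe sets and between −0.23 and 0.17 with 1 array left out; Hoxd8 between −0.020 and 0.70 with 1 array left out. The median of the Hox genes was between 0.015 and 0.20 with 1 array left out, lowest without knockout replicate 3, and was −0.0052 with no filter, where 33 genes entered. Above the 60th percentile 6 Hox genes passed in place of 10, without Hoxa2, Hoxa4, Hoxb6 and Hoxd8, and above the 25th percentile 13, with Hoxa9, Hoxc6 and Hoxd13 added. The count over all probe sets, 8, was 0 without a trend in eBayes, 40 with robust eBayes, 0 with the replicate block, 4 with sex as a term, 2 with bacterial control RNA as a term, 3 in the 4 arrays with low bacterial control RNA, and between 0 and 12 with 1 array left out (0 without wild type replicate 1 or 3 or knockout replicate 2 or 3, 2 without wild type replicate 2, 12 without knockout replicate 1). With the replicate block the lowest adjusted p of a Hox probe set was 0.468. The cause of these shifts was not tested, beyond the fewer or other genes entering. With 3 arrays per group and signals near the filter, differences under 2-fold of Hoxd8 and of the genes below the filter cannot be resolved. Larger ones may be missed as well. The Hoxd8 interval reached a log2 of 1.21, and Hoxc4 ran from 3.10 to 137 within the knockout arrays.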
